A study of Mus musculus with 1152 samples.

Results

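The genes described here are the nuclear-encoded members of the mitochondrial respiratory chain and ATP synthase, measured in single microglia, the resident macrophages of the brain. They were chosen by symbol: every gene whose symbol begins with Ndufa, Ndufb, Ndufc, Ndufs, Ndufv, Uqcr, Cox4i, Cox5, Cox6, Cox7, Cox8 or Atp5, plus Sdha, Sdhb, Sdhc and Sdhd, with pseudogene symbols left out. This gave 92 of the 48587 genes in the count table. By symbol they were grouped as 38 of complex I, 7 assembly factors of complex I, 4 of complex II, 8 of complex III, 18 of complex IV and 17 of ATP synthase, also called complex V. Atp5sl and Ndufa4, whose products are assigned elsewhere (below), were kept in the groups of their symbols, ATP synthase and complex I. Microglia were sorted by CD11b, CD45, Ly6C, Ly6G and CD206 from the cortex, hippocampus and cerebellum of WT mice and of 5xFAD mice, which carry transgenes with familial Alzheimer's disease mutations under a neuronal promoter and deposit amyloid; the labels give C57BL/6J as the strain of both and no age. Each cell was sequenced with the Smart-seq2 method, which reads whole transcripts and has no molecular identifiers. WT mice numbered 4 in each region and 5xFAD mice 4 in cortex, 3 in hippocampus and 3 in cerebellum, and per the design text 1 set of mice gave all the regions of a genotype.

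The respiratory chain passes electrons from NADH through complex I, or from succinate through complex II, to complex III, cytochrome c and complex IV, where oxygen is reduced. Complexes I, III and IV pump protons, and ATP synthase uses the gradient to make ATP. Most subunits are encoded in the nucleus and imported into mitochondria, where they join a small set encoded by the mitochondrial genome; microglia are known to shift between oxidative phosphorylation and glycolysis with their state.

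Of 1140 labelled cells, 1041 passed a filter of at least 500 genes, at least 10000 gene reads and at most 20% mitochondrial reads, and their counts were summed into 22 mouse-by-region sums of 35 to 72 cells and 5696201 to 26669220 gene reads. The microglial markers P2ry12, Tmem119, Cx3cr1, Csf1r and C1qa were each detected in 95.1% or more of the cells in every group. The sum of 5xFAD cerebellum mouse 3 stood apart, with 7431 CPM (read counts scaled to a common library size) of neutrophil markers and 2192 CPM of monocyte markers, where the other 21 sums had at most 853 and 398 CPM. The 3 plates hold WT cortex with WT hippocampus, WT cerebellum with 5xFAD cortex, and 5xFAD hippocampus with 5xFAD cerebellum, so within each region genotype and plate cannot be told apart; WT hippocampus against WT cortex and 5xFAD hippocampus against 5xFAD cerebellum are comparisons within a plate. The labels separate the mice by number, but the deviations of same-numbered sums did not go together. In whole-cell sums, fewer cells using a gene and less RNA per cell cannot be told apart; where this matters, the share of cells with a read is given as well.

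The 92 genes together took 0.478% to 0.618% of gene reads in the 22 sums. Their share was 0.560% to 0.601% in the 3 sums of 5xFAD hippocampus, above the 0.513% to 0.552% of the 4 sums of WT hippocampus; as a mean of the cells' own shares, which gives each cell the same weight, the genotypes overlapped there, at 0.527% to 0.551% and 0.492% to 0.545%. In cortex the share overlapped too, at 0.535% to 0.618% in 5xFAD and 0.518% to 0.562% in WT sums. In 5xFAD cerebellum it was 0.478% to 0.502%, and in WT cerebellum 0.499% to 0.545%.

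Levels were divided by the length of all annotated exons of each gene. This length was 4237 bases for Atp5b, 3135 for Atp5a1 and 1550 for Cox4i1, where a coding transcript had 1916, 2674 and 765 bases. The order of members and of complexes below therefore depends on the length used. Per kilobase of exon, the most abundant member was Atp5b, the catalytic beta subunit of ATP synthase, at 137 CPM per kilobase as a mean over the 22 sums. Atp5a1, its alpha subunit partner, followed at 135 CPM per kilobase. Cox4i1, the ubiquitous form of a core-binding subunit of complex IV, was next at 117 CPM per kilobase, ahead of Atp5c1, the ATP synthase gamma subunit, at 104 and Cox6b1, a complex IV subunit facing the intermembrane space, at 103. Sdha, the flavoprotein of complex II, was at 89.2 CPM per kilobase. By complex, the median level of the genes that passed the filter on low counts was highest for complex II (57 CPM per kilobase, 4 genes), then complex III (39.3, 8 genes), complex I (25, 37 genes), complex IV (24.3, 13 genes) and ATP synthase (20.8, 17 genes), and lowest for the complex I assembly factors (7.47, 7 genes). Of the 17 ATP synthase genes, Atp5sl had no annotated exon length here and did not enter the median. Levels of genes that share sequence with pseudogenes are uncertain: 68.5% of the 50-base stretches of the Atp5l transcript, 47.9% of those of Atp5h and 43.2% of those of Uqcrb occur in transcripts of other genes.

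Complex IV has subunits with a ubiquitous and a tissue-restricted form. In the sets of Cox4i1, Cox7a2 and Cox8a, nearly all reads came from these ubiquitous forms. Cox4i2, the lung and hypoxia form paired with Cox4i1, had 21 reads in all 1041 cells. Cox7a1, the heart and muscle form paired with Cox7a2, had 52 reads, and Cox8b and Cox8c, paired with Cox8a, had 2 reads and 1 read. Ndufa4l2, the hypoxia-induced relative of Ndufa4, had no read in any kept cell. Cox6a2, the heart and muscle form paired with Cox6a1, had 2959 reads and is described after the comparisons. A filter on low counts kept 86 of the 92 members for the test; Cox4i2, Cox7a1, Cox7b2, Cox8b, Cox8c and Ndufa4l2 did not pass.

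The genes were also matched by symbol to RefSeq promoters of GRCm38.p6, of which 76 of the 92 were found. Within 250 bases before the start, the motif of the factor NRF1, searched on both strands like the others, was present in 14 of the 76 (18.4%) and in 4.23% of 27025 promoters in all. The ETS motif CCGGAAG, which the factor GABPA can bind, was present in 13 of 76 (17.1%) and in 7.83% of all promoters, and the YY1 motif in 1 of 76 (1.32%) and in 0.248% of all. Each motif was counted separately, whether or not it overlapped another. The sequences of Cox6a1 and Cox8a are shown because these genes for complex IV subunits were among the members most like Cox4i1 across the 22 sums (below) while the letters before their starts differ: the stretch shown for Cox6a1 holds 2 NRF1 matches and that for Cox8a none of the 3 motifs. The ETS match of Cox6a1 lies in the last 23 bases of the window, which overlap the annotated gene and are not shown. They are printed 5′ to 3′ on the gene's strand, with matches in capitals, up to the start of the gene in the GENCODE M21 annotation: Cox6a1 at chr5:115348982-115349208 and Cox8a at chr19:7217617-7217866, both on the minus strand.
Cox6a1: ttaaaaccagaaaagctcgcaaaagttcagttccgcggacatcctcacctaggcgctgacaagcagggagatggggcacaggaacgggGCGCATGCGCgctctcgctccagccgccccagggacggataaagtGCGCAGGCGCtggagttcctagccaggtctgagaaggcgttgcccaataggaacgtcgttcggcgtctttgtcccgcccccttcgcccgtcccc
Cox8a: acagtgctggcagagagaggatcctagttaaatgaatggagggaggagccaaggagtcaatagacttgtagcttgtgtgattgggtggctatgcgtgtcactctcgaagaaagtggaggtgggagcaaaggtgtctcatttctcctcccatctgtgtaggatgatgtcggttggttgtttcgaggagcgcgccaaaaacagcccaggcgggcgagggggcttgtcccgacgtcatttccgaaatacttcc

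The first question was how 5xFAD and WT microglia differ in the hippocampus. Here 62 of the 86 tested members had a higher fitted level in 5xFAD, with a median log2 fold change of 0.20, beside 0.10 and 53.9% positive values over all 17358 genes tested. No member passed edgeR's quasi-likelihood test at an adjusted p under 0.05 (Benjamini-Hochberg over all genes, of which 1.01% passed), while 9 members were higher and 1 lower at an unadjusted p under 0.05, a level that 9.22% of all genes reached upward and 3.88% downward. DESeq2 called 5 members and limma-voom 3. The share of all genes that either method called is not given, here or below, so these counts cannot be set against other genes. The 13 tested members of complex IV had a median log2 fold change of 0.64.

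Cox4i1 lay on chromosome 8, 120668222 to 120674207 (GRCm38, plus strand). In hippocampus it was at 169, 114, 165 and 181 CPM (scaled by TMM, the trimmed mean of M-values) in WT mice 1 to 4 and at 265, 328 and 254 CPM in 5xFAD mice 1 to 3. All 3 5xFAD mice were above all 4 WT mice. The log2 fold change was 0.84 ± 0.21 (SE), with an adjusted p of 0.0584 by edgeR's test, 0.00111 by DESeq2 and 0.00745 by limma-voom. Without 5xFAD mouse 2, the highest, it was 0.74 with an adjusted p of 0.338, and with limma on the means of the cells it was 0.44 with an adjusted p of 0.440.

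Atp5b was at 514, 572, 448 and 444 CPM in WT hippocampus and at 728, 766 and 678 CPM in 5xFAD hippocampus, again without overlap. Its log2 fold change was 0.55 ± 0.15, and the adjusted p was 0.0947 by edgeR's test and 0.00293 by DESeq2. Cox6a1 was at 55.7, 40.7, 45.0 and 43.0 CPM in WT and at 70.9, 104 and 74.1 CPM in 5xFAD mice, a log2 fold change of 0.85 ± 0.29 (edgeR adjusted p = 0.243). Cox8a, the ubiquitous form of a small membrane subunit of complex IV, was at 48.1, 43.5, 42.7 and 42.1 CPM in WT and at 69.1, 83.5 and 53.8 CPM in 5xFAD mice, a log2 fold change of 0.64 ± 0.29 (edgeR adjusted p = 0.361). Both genes had no overlap between the genotypes in this region.

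Atp5sl had the opposite sign. Its symbol groups it with ATP synthase, but the gene is now named Dmac2 and its product is known as an assembly factor of complex I. It was at 63.0, 69.2, 59.2 and 64.2 CPM in WT hippocampus and at 20.9, 25.5 and 46.6 CPM in 5xFAD hippocampus, so every 5xFAD mouse was below every WT mouse. The log2 fold change was -1.04 ± 0.32, with an adjusted p of 0.184 by edgeR's test and 0.00601 by DESeq2; it was -0.49 when plate columns 1 and 2 were used as deposited, without the subtraction of other wells. In all, the log2 CPM of 5xFAD and WT mice did not overlap for 10 members that were higher (7.21% of all genes tested did so) and for 2 that were lower (3.8% of all genes), Atp5sl and the complex I subunit Ndufb11. The higher ones were Cox4i1, Cox6a1, Cox6a2, Cox8a, Atp5b, Atp5d, Atp5g3, Uqcrh, Ndufa1 and Ndufa13. By the share of cells with a read after thinning each cell to 50000 reads, 21 members were higher (6.74% of all genes) and 2 lower (2.52%) without overlap.

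Measures of the whole library moved with this comparison. Reads of the mitochondrial genome took 2.36% to 4.07% of gene reads in 5xFAD hippocampus and 1.60% to 1.71% in WT hippocampus, and the median number of genes per cell was 2760 to 3028 against 2400 to 2674. Summed over the 18 complex IV members, the level was 695, 923 and 677 CPM in 5xFAD hippocampus and 543, 482, 536 and 525 CPM in WT hippocampus. The part of these library measures in the members' values was not tested.

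**Figure D1:**
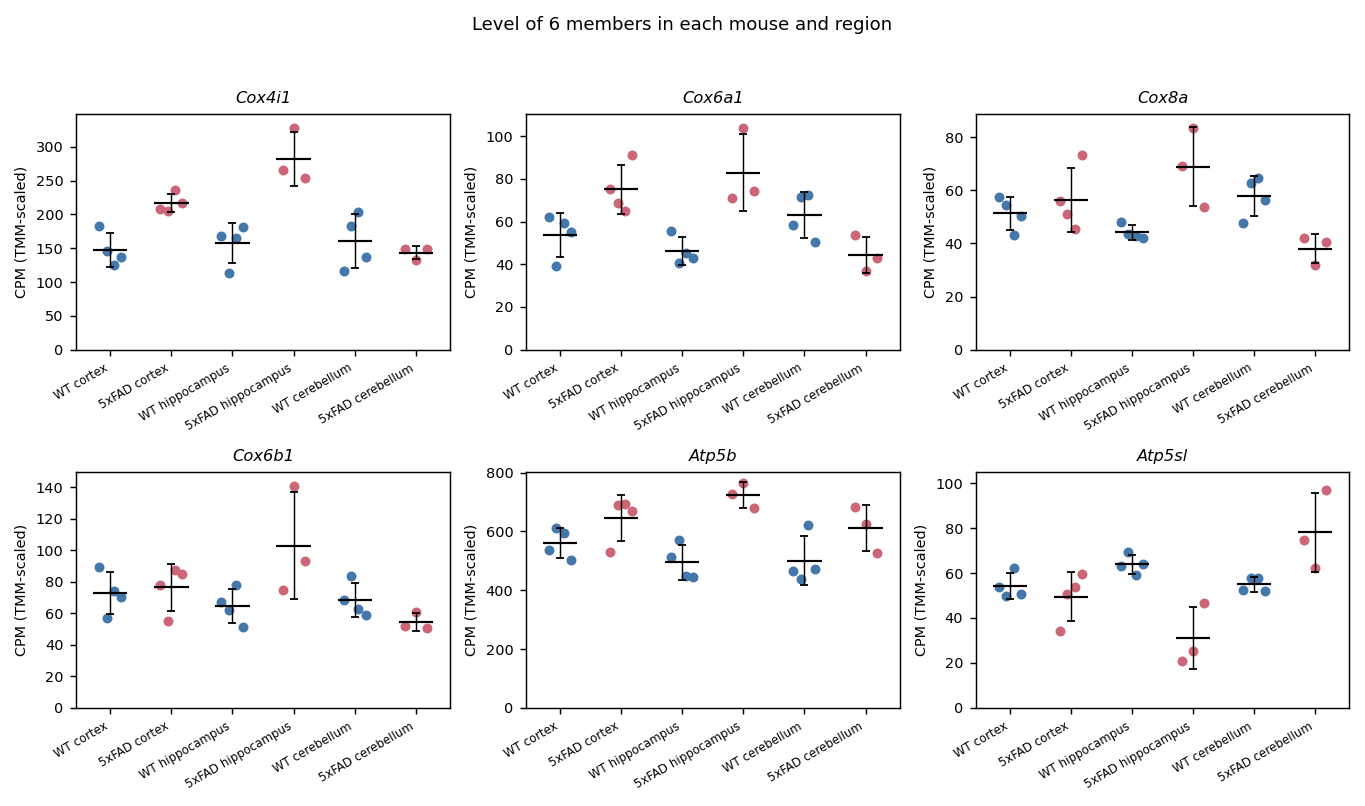
Level of Cox4i1, Cox6a1, Cox8a, Cox6b1, Atp5b and Atp5sl (CPM after TMM scaling, vertical axis from 0) in each mouse-by-region sum (points; blue WT, red 5xFAD) with the group mean and SD (black). The 5xFAD hippocampus points of Cox4i1 lie between 254 and 328 CPM, above the WT hippocampus points, and those of Atp5sl between 20.9 and 46.6 CPM, below them.

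In cortex, 50 of the 86 members had a higher fitted level in 5xFAD than in WT, with a median log2 fold change of 0.07 beside -0.09 and 45.2% positive values over all genes; with scaling to the ERCC spike-in RNAs 78 were positive and the medians were 0.57 and 0.40. None passed edgeR's test at an adjusted p under 0.05 (0.294% of all genes did), and neither DESeq2 nor limma-voom called any. At an unadjusted p under 0.05, 5 members were higher (4.5% of all genes) and 0 lower (7.25%). These 5 were Cox4i1, Cox6a2, the complex I subunit Ndufa1, the complex III core protein Uqcrc1 and the complex II membrane anchor Sdhd. Of the 13 complex IV members 12 had a positive log2 fold change, with a median of 0.49, and the 37 complex I members had a median of -0.08.

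Cox4i1 was at 183, 145, 125 and 136 CPM in WT cortex and at 208, 206, 236 and 217 CPM in 5xFAD cortex, with no overlap. The log2 fold change was 0.56 ± 0.20 (edgeR adjusted p = 0.378), and 1.07 with ERCC scaling. Ndufa1 was at 21.1, 20.0, 6.90 and 7.27 CPM in WT and at 18.6, 30.1, 38.1 and 30.7 CPM in 5xFAD cortex, and the groups overlapped, with a log2 fold change of 1.09 ± 0.49; that of Uqcrc1 was 0.50 ± 0.23 (edgeR adjusted p = 0.402 and 0.406). Atp5b, at 536, 611, 596 and 502 CPM in WT, was at 529, 689, 693 and 668 CPM in 5xFAD cortex, also with overlap. The log2 CPM of the genotypes did not overlap for 7 members, all higher in 5xFAD (3.06% of all genes were higher and 2.66% lower in this way): Cox5b, Ndufb5, Cox6a1, Cox6a2, Cox4i1, Cox5a and Uqcrc1, of which 5 are genes of complex IV. The share of cells with a read, after thinning every cell to 50000 reads, did not overlap for 12 members that were higher (3.33% of all genes) and 0 that were lower (1.11%).

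In cerebellum most fitted differences were negative: 28 of the 86 members were higher in 5xFAD and the median log2 fold change was -0.24, beside -0.01 and 47.9% positive values over all genes; with ERCC scaling 68 were positive, the members' median was 0.29 and that of all genes 0.47. None passed edgeR's test (0.0461% of all genes did) and neither DESeq2 nor limma-voom called any; 1 member was higher and 3 were lower at an unadjusted p under 0.05, where 4.59% and 4.33% of all genes were. The lower ones were the complex I subunits Ndufa2 and Ndufb5 and the ATP synthase epsilon subunit Atp5e. Ndufa2 was at 55.6, 50.8, 77.9 and 39.9 CPM in WT cerebellum and at 29.4, 15.8 and 31.6 CPM in 5xFAD cerebellum, without overlap, a log2 fold change of -1.13 ± 0.41 (edgeR adjusted p = 0.552), or -0.61 with ERCC scaling. That of Ndufb5 was -0.96 ± 0.38, and -0.55 without 5xFAD cerebellum mouse 2, and that of Atp5e was -0.85 ± 0.40 (edgeR adjusted p = 0.552 for both with all mice). Ndufs1, the largest complex I subunit, was at 61.0, 42.3, 51.3 and 103 CPM in WT and at 147, 197 and 106 CPM in 5xFAD mice, a log2 fold change of 1.22 ± 0.46 (edgeR adjusted p = 0.552). Cox4i1, at 117, 183, 203 and 138 CPM in WT and 149, 133 and 149 CPM in 5xFAD cerebellum, overlapped. The log2 CPM of the genotypes did not overlap for 2 members that were higher (3.93% of all genes), Ndufs1 and Atp5sl, and 9 that were lower (2.62%), among them Cox7a2, Cox7b and Cox8a of complex IV, Uqcrb and Uqcrq of complex III, and Sdhb. By the share of cells with a read, 6 members were higher (3.96% of all genes) and 4 lower (1.57%) without overlap.

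**Figure D2:**
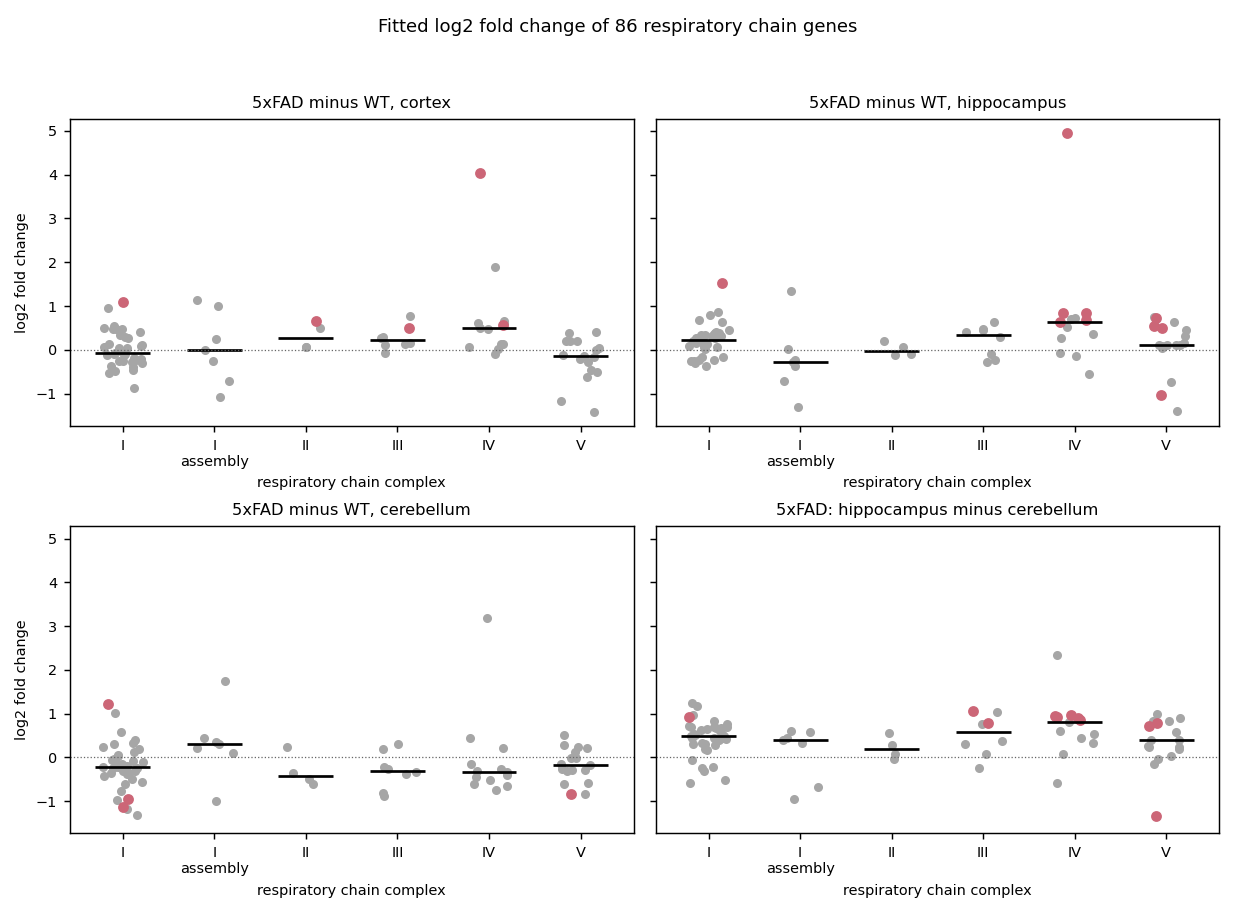
Fitted log2 fold change (vertical axis) of the 86 tested members, 1 point per gene, by complex (horizontal axis) in 3 comparisons of genotype and in 5xFAD hippocampus against 5xFAD cerebellum; black bars are medians and red points have an unadjusted p under 0.05 by edgeR's test. The complex IV median is 0.64 in hippocampus and -0.33 in cerebellum, and no gene passed an adjusted p under 0.05.

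Whether the genotype difference itself differed between regions was tested as an interaction. For hippocampus minus cerebellum, 0 of 86 members passed edgeR's test (0.3% of all genes did). At an unadjusted p under 0.05, 9 were higher (7.54% of all genes) and 1 lower (3.86%). DESeq2 called 5 (Cox4i1, Cox6a1, Cox8a, Atp5c1 and Atp5sl), with no share of all genes to set beside them, and limma-voom called none. The difference of differences was 1.00 ± 0.30 on the log2 scale for Cox4i1, 1.36 ± 0.41 for Cox6a1 1.25 ± 0.42 for Cox8a and -1.55 ± 0.45 for Atp5sl, with edgeR adjusted p of 0.243, 0.243, 0.291 and 0.208. For hippocampus minus cortex, 0 of 86 passed (0.0461% of all genes), with 2 higher (8.57% of all genes) and 1 lower (2.81%) at an unadjusted p under 0.05 and none called by DESeq2 or limma-voom. The 4 smallest p there belonged to Atp5c1 (0.71 ± 0.26), Atp5g3 (1.16 ± 0.50), Atp5sl (-0.92 ± 0.43) and Atp5b (0.35 ± 0.20), with edgeR adjusted p from 0.272 to 0.567.

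Between regions of the 5xFAD mice, compared within 1 plate, 72 of 86 members had a higher fitted level in hippocampus than in cerebellum. The median log2 fold change was 0.46, beside 0.03 and 51.2% positive values over all genes, and the members' median was 0.45 with DESeq2's size factors in edgeR's fit and 0.51 with ERCC scaling. None passed edgeR's test (0.219% of all genes did), and 10 were higher and 1 lower at an unadjusted p under 0.05 (4.87% and 2.93% of all genes). DESeq2 called 7 and limma-voom 3, with no share of all genes to set beside them. The log2 CPM of the 3 hippocampus and 3 cerebellum sums did not overlap for 27 members that were higher (7.3% of all genes) and 1 that was lower (5.85% of all genes), Atp5sl. By the share of cells with a read after thinning, 28 were higher (8.28% of all genes) and 2 lower (3.23%) without overlap. All 6 complexes and groups had a positive median, from 0.18 for complex II to 0.81 for complex IV.

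Markers of border-associated macrophages moved with this comparison. Their summed level (Mrc1, which encodes CD206, with Pf4, Cd163, Lyve1, F13a1 and Ms4a7) was 254 to 516 CPM in the 3 cerebellum sums and 3.56 to 7.12 CPM in the 3 hippocampus sums. Of the 6 markers 5 had a read in a larger share of the cerebellum cells, with Mrc1 in 9.84% against 3.90%, and Lyve1 had a read in none of them. In sums restricted to 995 wells with at least 3 of 6 microglial markers and fewer than 3 markers of each other cell type, the members' median log2 fold change was 0.52 and 0 members passed edgeR's test. The border-associated macrophage markers were at 1.92 to 36.3 CPM in 5xFAD cortex, 2.67 to 515 CPM in WT cerebellum, 1.94 to 297 CPM in WT cortex and 0 to 301 CPM in WT hippocampus. Summed monocyte markers were at 50.5, 323 and 2192 CPM in 5xFAD cerebellum mice 1 to 3 and at 10.1, 3.04 and 5.19 CPM in 5xFAD hippocampus mice 1 to 3. Those of neutrophils were at 626, 473 and 7431 CPM against 779, 700 and 853 CPM. As a sum over markers, the neutrophil level does not show which marker gave it, or whether each marker went the same way.

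In these mice Cox4i1 was at 265, 328 and 254 CPM in hippocampus and at 149, 133 and 149 CPM in cerebellum, a log2 fold change of 0.98 ± 0.23 with an adjusted p of 0.1 by edgeR's test, 0.000935 by DESeq2 and 0.000646 by limma-voom. Without hippocampus mouse 2 it was 0.85, with an adjusted p of 0.627 by edgeR's test. Atp5c1 was at 291, 228 and 283 CPM against 146, 171 and 175 CPM, a log2 fold change of 0.71 ± 0.21 (edgeR adjusted p = 0.359), or 0.38 with limma on the means of the cells. Both genes had every hippocampus value above every cerebellum value. Cox6b1 was at 74.8, 141 and 93.3 CPM against 52.0, 60.9 and 50.4 CPM, a log2 fold change of 0.92 ± 0.30 (edgeR adjusted p = 0.551), or 0.51 with limma on the means of the cells. Cox7a2l, grouped here with complex IV, was at 118, 116 and 81.4 CPM against 49.4, 62.4 and 52.3 CPM. Uqcrh, the hinge protein of complex III, was at 89.8, 84.3 and 76.1 CPM against 36.3, 52.1 and 57 CPM. Sdhb, the iron-sulfur subunit of complex II, was at 140, 141 and 121 CPM against 114, 115 and 98.6 CPM. These 4 genes did not overlap either, and Ndufa4, now assigned to complex IV, did, at 69.3, 75.5 and 43.6 CPM against 47.1, 37.8 and 49.8 CPM.

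Atp5sl was at 20.9, 25.5 and 46.6 CPM in 5xFAD hippocampus and at 74.9, 62.3 and 97.1 CPM in 5xFAD cerebellum, a log2 fold change of -1.33 ± 0.34 (adjusted p = 0.172 by edgeR's test, 0.000511 by DESeq2 and 0.0142 by limma-voom). It was -0.79 with the plate columns as deposited. The sums of the 995 wells gave 1.06 for Cox4i1 and -1.24 for Atp5sl. The share of mitochondrial reads was 2.36% to 4.07% in this hippocampus group and 1.66% to 1.96% in this cerebellum group, and its part in these values was not tested.

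In 5xFAD cerebellum against cortex, 73 of 86 members had a lower fitted level, with a median log2 fold change of -0.38 beside 0.03 and 51.2% positive values over all genes; with ERCC scaling 7 were positive and the medians were -0.69 and -0.22, and with the 995 microglial wells the members' median was -0.42. The sums lay on different plates. None passed edgeR's test (0.0576% of all genes did), 7 were lower and 1 higher at an unadjusted p under 0.05 (3.48% and 4.71% of all genes), and DESeq2 called 1, Uqcrb, while limma-voom called none. The lower ones included Cox4i1 (log2 fold change -0.59 ± 0.22), Cox6a1 (-0.76 ± 0.29), Ndufa2 (-1.06 ± 0.40) and 3 of the 4 complex II genes, with Sdhb at -0.67 ± 0.25; the edgeR adjusted p was 0.605 for each of these. The log2 CPM did not overlap for 17 members that were lower (3.85% of all genes) and 1 that was higher (4.31%), Atp5sl, and the share of cells with a read for 22 that were lower (7.64%) and 1 that was higher (1.84%). This comparison shares its cerebellum sums with the one before it. In 5xFAD hippocampus against cortex the median was 0.11 beside 0.08 over all genes, and -0.18 beside -0.15 with ERCC scaling; 0 members passed edgeR's test (0.0346% of all genes), 1 was higher (5.78% of all genes) and 1 lower (2.54%) at an unadjusted p under 0.05, DESeq2 called Atp5c1, and limma-voom called none. The log2 fold change was 0.61 ± 0.19 for Atp5c1, -0.68 ± 0.32 for Atp5sl, -0.69 ± 0.34 for Sdhd and 0.61 ± 0.34 for Cox7a2l (edgeR adjusted p from 0.594 to 0.629).

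Among WT mice, in hippocampus against cortex on 1 plate, 43 members had a positive and 43 a negative log2 fold change (45% positive over all genes); 0 passed edgeR's test (0% of all genes did), and 1 was higher (2.77% of all genes) and 1 lower (7.75%) at an unadjusted p under 0.05. The lower one was Atp5g3, 1 of 3 genes for the membrane-embedded c subunit of ATP synthase, at 90.6, 66.4, 85.1 and 49.0 CPM in cortex and 33.6, 32.3, 21.8 and 31.2 CPM in hippocampus, without overlap. Its log2 fold change was -1.29 ± 0.35, with an adjusted p of 0.474 by edgeR's test and 0.00125 by DESeq2, which called this gene alone among the members; limma-voom called none. Of the other 2 genes for this subunit, Atp5g1 had a mean of 5.83 CPM and Atp5g2 of 2.64 CPM over the 22 sums, beside 46.1 CPM for Atp5g3. The next smallest p belonged to the complex I subunits Ndufb5 (log2 fold change 0.85 ± 0.35) and Ndufb10 (-0.62 ± 0.33) and to Atp5g1 (-1.74 ± 0.95), with edgeR adjusted p from 0.474 to 0.529.

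In WT cerebellum against cortex 0 members passed edgeR's test (0.277% of all genes did), with 2 higher (5.22% of all genes) and 3 lower (6.77%) at an unadjusted p under 0.05, and DESeq2 called Atp5g3 alone (edgeR log2 fold change -1.06 ± 0.34, adjusted p = 0.285) and limma-voom none. Of the complex I subunits Ndufb9, Ndufb2 and Ndufb5, which followed, the log2 fold change was -0.98 ± 0.32, 1.86 ± 0.69 and 0.82 ± 0.35 (edgeR adjusted p from 0.29 to 0.385). In WT hippocampus against cerebellum 0 passed (0.374% of all genes), 3 were higher (Ndufaf7, Ndufb9 and Ndufa9; 5.25% of all genes) and 0 lower (8.46%) at an unadjusted p under 0.05, and DESeq2 and limma-voom called none. There the log2 fold change was 0.88 ± 0.36 for Ndufaf7, 0.77 ± 0.32 for Ndufb9, 0.64 ± 0.27 for Ndufa9 and 0.46 ± 0.27 for Ndufa10 (edgeR adjusted p from 0.337 to 0.462). The median log2 fold change of the members was -0.07 and -0.01 in these comparisons, beside -0.01 and -0.08 over all genes, with 38 and 41 members positive. With ERCC scaling the members' medians were -0.41 and 0.37, beside -0.31 and 0.24 over all genes, and 17 and 75 members were positive.

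Across the 22 sums, the members most like Cox4i1 in log2 CPM were Ndufa1 (Pearson r = 0.78), Cox6a1 (0.76), Cox7a2l (0.73) and Cox8a (0.67), where the median r over the 3655 pairs of tested members was 0.09. Those most like Atp5b were Cox6a2 (0.62) and Cox7a2l (0.56). These are descriptions over sums that share plates and groups.

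**Figure D3:**
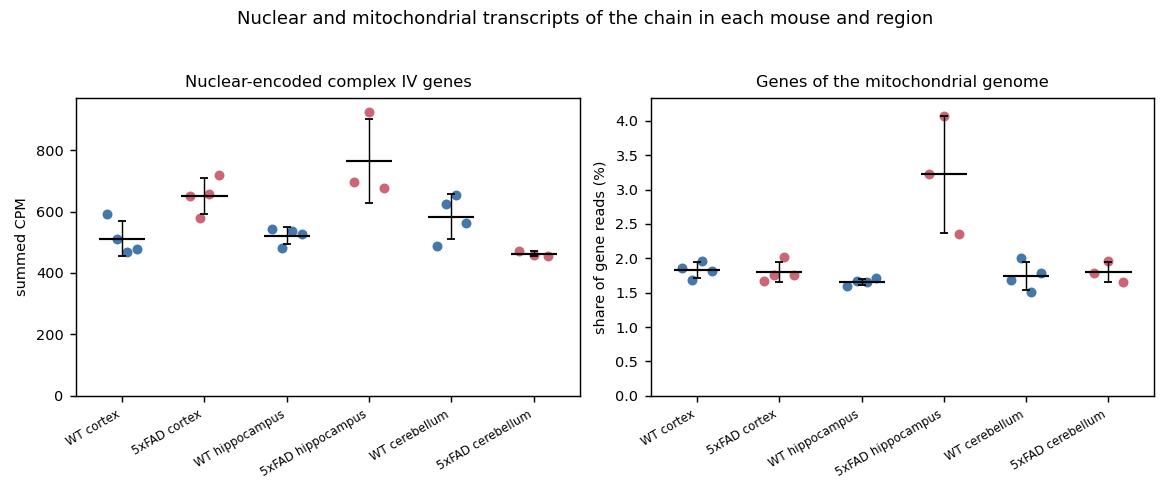
Summed level of the 18 nuclear-encoded complex IV genes (left, CPM) and share of gene reads from the mitochondrial genome (right, percent) in each mouse-by-region sum (points; blue WT, red 5xFAD) with group mean and SD (black); both axes start at 0. The 3 sums of 5xFAD hippocampus are at 677 to 923 CPM and 2.36% to 4.07%, above the WT hippocampus sums in both.

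Cox6a2 was read in more cells of 5xFAD than of WT mice in each region. The gene lies on chromosome 7, 128205435 to 128206387 (GRCm38, minus strand), inside the span of Itgad on the other strand, with 70 exon bases in common, and 54778 bases from Itgax. Its product is the form of complex IV subunit 6a known from heart and skeletal muscle. Reads were found in 118 of 1041 kept cells, 110 of them from 5xFAD and 8 from WT mice, with a median of 13 reads and a maximum of 205 in a cell; the 12 blank wells had none. The share of cells with a read was 1.80% in WT cortex, 1.10% in WT hippocampus and 1.85% in WT cerebellum, and 20.2%, 33.1% and 11.4% in the same regions of 5xFAD mice.

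After thinning each of the 941 cells with at least 50000 reads to that number, 0%, 0%, 2.86% and 2.70% of cells in WT cortex mice 1 to 4 had a Cox6a2 read, against 15.0%, 20.9%, 11.1% and 22.7% in 5xFAD cortex mice 1 to 4. In hippocampus the shares were 4.55%, 0%, 0% and 0% in WT and 20.9%, 24% and 31.0% in 5xFAD mice. In cerebellum they were 0%, 5.41%, 0% and 0% in WT and 15.3%, 1.75% and 9.86% in 5xFAD mice. The genotypes did not overlap in cortex and hippocampus and overlapped in cerebellum through 5xFAD mouse 2. A share of 0% in a WT mouse, from 26 to 46 cells, allows a share of up to 6.52% to 11.5%, counting error only.

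The mean difference was 16.1 percentage points in cortex (exact permutation test, two-sided, p = 0.0286, the smallest that 4 against 4 mice allow), 24.2 points in hippocampus (exact p = 0.0571, the smallest that 3 against 4 allow) and 7.60 points in cerebellum (exact p = 0.114). Without 5xFAD cerebellum mouse 1 the last was 4.46 points, and counting only cells with at least 2 reads gave 10.3 points in cortex. On the plate that holds both genotypes, 5xFAD cortex was 16.1 points above WT cerebellum (exact p = 0.0286), a comparison that differs in region as well. In 5xFAD, hippocampus was 16.3 points above cerebellum (exact p = 0.1, the smallest that 3 against 3 allow). Adjusted over these 5 comparisons by Benjamini-Hochberg, p was 0.0714 for the 2 with 4 against 4 mice, 0.0952 in hippocampus and 0.114 for the others, so none passed 0.05; the test of shares was added after the values were seen. In the summed counts the log2 fold change was 4.04 ± 1.84 in cortex and 4.96 ± 1.95 in hippocampus (edgeR adjusted p = 0.404 and 0.328), and limma-voom called the gene in hippocampus (adjusted p = 0.000452).

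**Figure D4:**
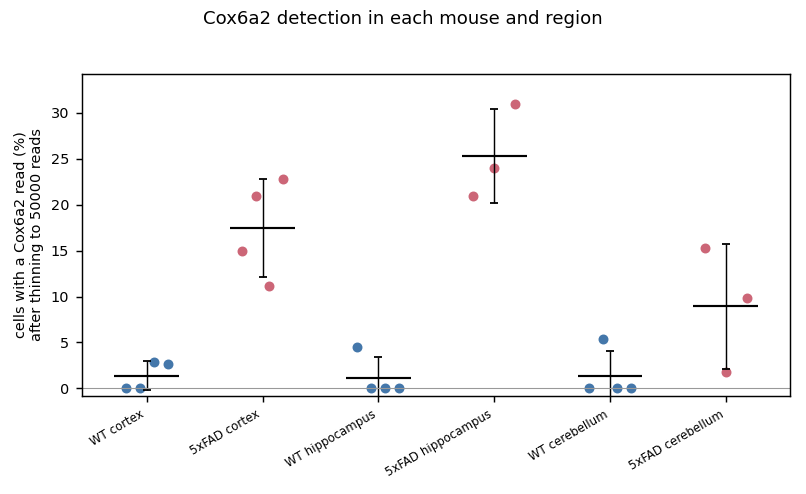
Share of cells with a Cox6a2 read (percent, after thinning to 50000 reads) in each mouse-by-region sum (points; blue WT, red 5xFAD) with group mean and SD (black). WT mice lie between 0% and 5.41% and 5xFAD hippocampus mice between 20.9% and 31.0%.

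The ubiquitous partner Cox6a1 was read more often: after thinning it had a read in 81.0% of 5xFAD cells positive for the gene panel described next, where Cox6a2 had one in 35.7%. Itgad, whose exons overlap those of Cox6a2, had a read in 5 of 494 thinned 5xFAD cells, and 3 of the 81 cells with a Cox6a2 read were among them. The strand setting of the authors' counting is not given in the sources used here, so reads from the 70 shared bases cannot be assigned with certainty. Itgax had a read in 104 of the 494 cells, of which 33.7% had a Cox6a2 read, beside 11.8% of the 390 cells without.

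5xFAD cells were also divided by a panel of 8 genes known from disease-associated microglia: Cst7, Lpl, Itgax, Clec7a, Axl, Csf1, Spp1 and Ch25h. A cell was positive with a read of at least 3 of them after thinning and negative with none, and the 163 cells in between were left out of the test; 64 cells had 2 panel genes and 40 had 3, on either side of the limit. Positive cells were 56.3% of the thinned 5xFAD hippocampus cells, 29.1% of those from cortex and 22.5% of those from cerebellum, and 12 of 447 WT cells (2.68%).

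Over the 10 5xFAD mouse-by-region sums, 76 of 85 tested members had a higher fitted level in panel-positive than in panel-negative cells of the same mouse, with a median log2 fold change of 0.74, beside 0.30 and 59.9% positive values over the 12213 genes tested. No member passed edgeR's test at an adjusted p under 0.05 (1.31% of all genes did, 130 higher and 30 lower). At an unadjusted p under 0.05, 8 were higher and 0 lower (6.34% and 2.46% of all genes). DESeq2 called 12, all higher, but its share of all genes is not given, so this count cannot be set against other genes. The median was 0.92 for complex IV, with all 13 of its members positive, and 0.84 for complex I. Panel-positive cells had more genes per cell, a median of 3080 against 2637, and after thinning had reads of a median of 38 of the 92 members against 28. In the thinned reads the members took 0.614% in positive and 0.494% in negative cells. These values pool cells over regions, and hippocampus gave 76 of the 168 positive and 20 of the 163 negative cells. By region the members took 0.606% and 0.552% in cortex, 0.654% and 0.438% in hippocampus and 0.551% and 0.457% in cerebellum. The part of the number of genes per cell in these differences was not tested.

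Sdha, which oxidises succinate in complex II, had the smallest p, with a log2 fold change of 1.45 ± 0.35 (edgeR adjusted p = 0.0614). By region it was 0.40 ± 0.51 in cortex, 3.13 ± 0.69 in hippocampus and 0.83 ± 0.59 in cerebellum. In the fit over all regions Cox4i1 followed at 1.11 ± 0.27 (0.0654), then Atp5b at 0.76 ± 0.21 (0.139) and Cox6a1 at 1.38 ± 0.46 (0.269). Within regions the fitted change of Cox4i1 was 1.19 ± 0.42 in cortex, 1.54 ± 0.49 in hippocampus and 0.58 ± 0.48 in cerebellum. In hippocampus only 5 to 8 panel-negative cells per mouse were available, and the median over all genes tested there was 1.35, beside a members' median of 1.39. In cortex the members' median was 0.27 beside -0.10 over all genes, and in cerebellum 0.36 beside -0.28.

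Cell by cell, 91.7% of panel-positive and 75.5% of panel-negative 5xFAD cells had a Cox4i1 read after thinning, and the share was higher among positive cells in all 10 mouse-by-region sets, by 3.94 to 23.9 percentage points. For Cox6a2 the shares were 35.7% (60 of 168 cells) and 4.29% (7 of 163 cells), with 8.59% (14 of 163) in the cells between. By region, 40.0% of positive cells in cortex, 42.1% in hippocampus and 19% in cerebellum had a Cox6a2 read, against 5.88%, 0% (0 of 20 cells, which allows up to 15.0%) and 4.00% of negative cells. In 9 of the 10 sets the share was higher among positive cells; in 5xFAD cerebellum mouse 2 neither class had a cell with a read. Among WT cells 1 of the 12 panel-positive ones had a Cox6a2 read.

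**Figure D5:**
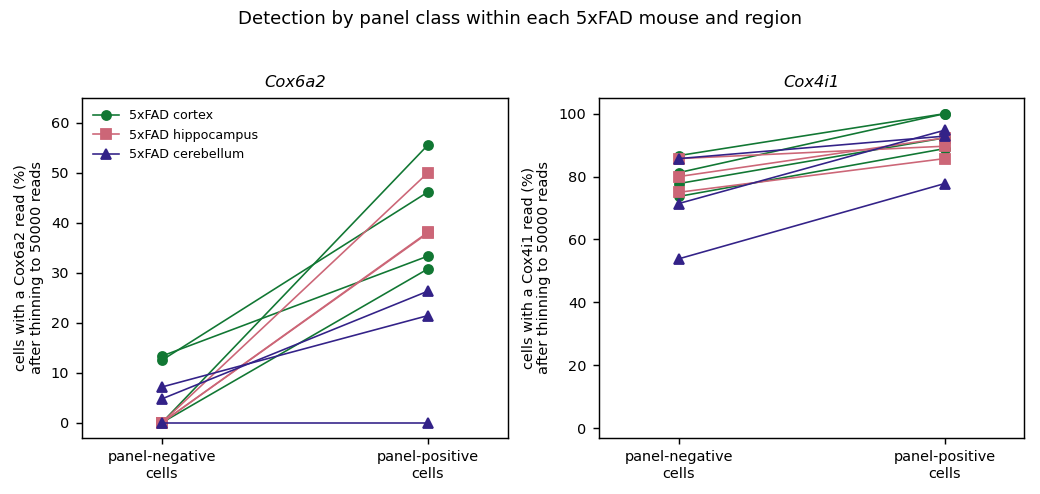
Share of cells with a Cox6a2 read (left) and a Cox4i1 read (right), in percent after thinning to 50000 reads, in panel-negative and panel-positive cells; each line joins the classes of 1 5xFAD mouse and region. For Cox6a2 the positive classes range from 0% to 55.6% and the negative ones from 0% to 13.3%.

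The other genes of the pathway were counted from lists of symbols. Of 13 genes of the mitochondrial genome, 8 passed the filter on low counts. In 5xFAD against WT hippocampus 6 rose and 1, mt-Nd3, was called lower by edgeR's test, with a median log2 fold change of 0.92. In 5xFAD hippocampus against cerebellum 6 rose and 0 fell. Over all 17358 genes tested, 132 were called higher and 44 lower in the first comparison, and 36 and 2 in the second. mt-Co1, the catalytic subunit of complex IV, rose by 1.36 ± 0.13 on the log2 scale in 5xFAD hippocampus against WT (edgeR adjusted p = 1.18e-06) and mt-Nd5, a proton-pumping subunit of complex I, by 1.15 ± 0.12. mt-Nd3, also called lower in 5xFAD against WT cortex (edgeR adjusted p = 0.0290), had 0 reads in each of the 10 5xFAD sums and 15 to 46 reads in each of the 12 WT sums, with 15 to 39 in the WT cerebellum sums that share a plate with 5xFAD cortex. Whether the counts of both genotypes were made with the same annotation and settings was not tested, which bears on every comparison of genotype. mt-Nd4l, mt-Co2, mt-Co3, mt-Atp6 and mt-Atp8 had 0 reads in all 22 sums.

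No gene of the citric acid cycle (16 tested), of complex IV and V assembly (19), of the mitochondrial ribosome (77), of cytochrome c and c1 (2) or of the regulators of mitochondrial biogenesis (13, with Ppargc1a, Nrf1, Gabpa and Tfam) passed edgeR's test in any of the 9 comparisons of groups. In 5xFAD against WT hippocampus the citric acid cycle genes had a median log2 fold change of 0.51, with 4 higher and 0 lower at an unadjusted p under 0.05. The regulators had a median of -0.40, with none in either direction. Over all 17358 genes tested there the median was 0.10, with 1600 higher and 673 lower at that level. Of 11 carriers and channels Ucp2, an inner-membrane carrier, rose in 5xFAD hippocampus against WT (log2 fold change 0.84 ± 0.16, edgeR adjusted p = 0.00646). Of 94 tested genes of the cytosolic ribosome list, 5 rose and 1 fell there, with Rps3 at 0.88 ± 0.14. Of all 17358 genes tested, 132 rose and 44 fell in that comparison by edgeR's test. The ribosome list gene that fell, Rps6ka1, encodes a kinase and not a ribosomal protein, and is in the list by its prefix.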

How the data were processed

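Single microglia were sorted into 3 plates and sequenced with Smart-seq2. The authors deposited raw read counts per gene; per the submitters' processing notes, STAR 2.5.2b, featureCounts 1.5.1 and GRCm38 were used, and the strand setting is not given in the sources used here. In the deposited counts, wells of plate columns 1 and 2 held sums with other wells of their row: subtracting wells 10 to 19 from column 1 and 20 to 24 from column 2 left 0 negative values of 4673184, against 506416 with the next row. Cells were kept with at least 500 genes, at least 10000 gene reads and at most 20% mitochondrial reads, and summed by mouse and region. All 22 sums entered 1 edgeR quasi-likelihood fit (edgeR 4.0.16, R 4.3.3, TMM, filterByExpr, 17358 genes, Benjamini-Hochberg threshold 0.05). Panel classes were fitted on their own sums, with mouse and region as a block. DESeq2 1.42.0, limma-voom (limma 3.58.1), other scalings, filters, cell sets and leaving out each mouse were alternatives. For shares of cells, 941 cells were thinned to 50000 reads. Scripts were tested on simulated data. The labels number mice within each group, and same-numbered sums were checked for deviating together: over 21 pairs and 6581 genes the correlations were -0.0365 to 0.0339, so the numbers were not used as pairs. The regions came from the same mice, so sums of different regions of 1 genotype are not independent. In each comparison the 4 members with the smallest p were named where fewer than 4 passed, beside Ndufa4, Ndufs1, Sdhb, Uqcrh, Cox4i1, Cox7a2l, Atp5b and the sets of isoforms; other members were named after their values were seen. The members and lists were chosen with earlier results of these data known.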

Additional observations from a re-analysis of the deposited data

Results flagged for a closer look

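Of 116 groups of 4 sums tested for a value far from the other 3, 4 passed Dixon's critical value; chance flags about 1 group in 20. Atp5b in 5xFAD cortex mouse 1 was low, at 9.05 on the log2 CPM scale. Cox6a2 in WT hippocampus mouse 1 was at 2.30 on the same scale, above the other 3 mice, which had no read. With those 3 values tied, any read in mouse 1 would have been flagged. Ndufs1 in WT hippocampus mouse 2 was low, at 4.26. The summed level of the complex III genes in WT cerebellum mouse 1 was 440.2 CPM, below the other 3. Outside the compared data, 1 of 12 blank wells held 45 reads of the members, of 55 in all blanks (0.097% of 56684 gene reads). The pseudogene row Uqcrh-ps2, which the symbol rule leaves out, had 132 reads in 82 kept cells.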

How the results depend on the processing

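The count of members past an adjusted p of 0.05 was 0 in every comparison by edgeR's test. For the alternatives below, the share of all genes past this limit is not given, so these counts cannot be set against other genes. For 5xFAD against WT hippocampus it was 1 with DESeq2's size factors, with thinned cells, with limma on cell means, with microglia-only wells and with at most 10% mitochondrial reads and at least 1000 genes, 2 with a stricter filter on low counts, 3 with limma-voom, 3 with the replicate block on mouse number and 5 with DESeq2. Leaving out 1 mouse at a time gave 0 to 2 there, with 2 without WT cerebellum mouse 3 and 1 without WT cerebellum mouse 1, WT cortex mouse 1 or WT hippocampus mouse 1. For 5xFAD hippocampus against cerebellum it was 1 with the stricter filter and with the stricter cell limits, 3 with limma-voom and 7 with DESeq2, and 5 with DESeq2 for the genotype difference between these regions. DESeq2 gave 1 in WT hippocampus against cortex, WT cerebellum against cortex, 5xFAD hippocampus against cortex and 5xFAD cerebellum against cortex. For the panel it was 12 with DESeq2, 4 with no replicate block, 2 with thinned cells, and 1 with no filter on low counts, with a limit of 2 panel genes and with the panel read from all reads; leaving out 1 mouse gave 0 to 1, with 1 without 5xFAD hippocampus mouse 1 or 2. The replicate block changed no other count. Apart from cases where fewer samples entered, the cause was not tested. ERCC scaling moved the median of all genes by over 0.1 in most comparisons of groups, from -0.09 to 0.40 in cortex, 0.10 to 0.29 in hippocampus and -0.01 to 0.47 in cerebellum. The shares of cells with a Cox6a2 read lost an exact p under 0.05 in cortex, and in 5xFAD cortex against WT cerebellum, whenever a mouse was left out, because 3 against 4 mice cannot go below 0.0571. The members' median log2 fold change changed sign with ERCC scaling in 5xFAD against WT cerebellum (from -0.24 to 0.29), 5xFAD hippocampus against cortex (0.11 to -0.18) and WT hippocampus against cerebellum (-0.01 to 0.37), and with DESeq2's size factors in WT hippocampus against cortex (0.01 to -0.03). For the named genes recomputed under the alternatives, no log2 fold change or difference in shares changed sign, but some moved by over 1.5 times. Beside those given above, ERCC scaling moved Ndufa1 and Uqcrc1 in cortex to 1.65 and 0.98, and Ndufb5 and Atp5e in cerebellum to -0.36 and -0.40; limma on cell means moved Atp5b in hippocampus to 0.35; and thinned cells moved Ndufb5 and Atp5e in cerebellum to -0.48 and -0.50 and Atp5sl in 5xFAD hippocampus against cerebellum to -0.85.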
